A study of Mus musculus with 45 samples.

Results

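Chromatin accessibility was followed at 39 genes of 6 families of developmental transcription factors, Pax, Lhx, Nkx, Six-type, Irx and Dlx, in mouse embryonic stem cells (mESC) from which SOX2, OCT4 or NANOG was depleted. An ATACseq peak, or open chromatin region (OCR), was taken as a member when its summit lay within 10 kb of the 5′ end of one of these genes in the GENCODE annotation of the mm10 genome build. Of 184964 peaks, 185 met this rule, with 38 around Pax genes, 38 around Lhx genes, 32 around Nkx genes, 17 around Six2, Six3, Six4 and Six6, 26 around Irx genes and 34 around Dlx genes. Each peak is named by its gene and by the distance in bp of its summit from that gene's 5′ end, negative for upstream. Counts in 173 members were tested in the SOX2-FKBP time course and in 180 in the combined data of the 3 lines, while 5 members passed the filter on low counts in neither.

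Genes of these families encode homeodomain or paired-domain proteins that specify cell types in the neural tube, forebrain, eye, heart, kidney, limb and endocrine organs. In mESC their promoters are known as CpG islands that mostly carry an activating and a Polycomb-type repressive histone mark together, called bivalent, and give little transcript. SOX2 and OCT4 are pioneer factors that bind nucleosomal DNA, often side by side on a composite motif, and NANOG is a homeodomain partner of the same network. ATACseq reports how often the Tn5 transposase cuts a region and measures neither RNA nor histone marks, so that silence and bivalency were not measured here.

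Each line carried the FKBP degron tag on the named factor, which dTAG-13 targets for degradation. SOX2-FKBP and NANOG-FKBP were made in E14 mESC of 129/Ola origin, with IB10 given for SOX2, as clones with both alleles tagged, whereas OCT4-FKBP was a V6.5 line obtained from another laboratory. Cells grew without serum in LIF with MEK and GSK3β inhibitors. They received 500 nM dTAG-13 for 0.5, 1, 2, 6 or 24 h (SOX2-FKBP) or for 2, 6 or 24 h (OCT4-FKBP and NANOG-FKBP), and not treated cells (NT) received DMSO. Each group held 2 libraries, except the 3 treated NANOG-FKBP groups with 3 each. The tagged factor and the cell line with its strain background cannot be told apart. The methods mention an independent clone for SOX2 but the labels do not say which library came from which clone or culture, so the p-values below measure the spread between these libraries, which may be technical. The 31 libraries analysed are part of 45 samples, and the other 14 were not analysed here.

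Libraries held 1817191 to 17575631 fragments in peaks, and the members took 0.0953 to 0.191% of them. The replicate 2 libraries of treated NANOG-FKBP cells were the shallowest, with 13.2 to 17.6% of their counts in peaks on the mitochondrial genome, against 1.42 to 6.65% elsewhere. As a check on cell identity, 7 of 8 naive stem cell markers had a tested peak within 500 bp of their start, at 29.3 to 364 normalised counts per kb of peak in SOX2-FKBP NT cells. In the same cells 1 of 6 fibroblast markers (Thy1, 39.1), 2 of 5 primitive endoderm markers (Gata6, 40.9, and Sox17, 40.3) and 1 of 4 trophectoderm markers (Cdx2, 51.5) had such a peak, each above the lowest naive marker, Esrrb. In OCT4-FKBP and NANOG-FKBP NT cells Cdx2 read 126 and 85.3 per kb, Thy1 73.0 and 44.3, Sox17 69.1 and 77.6, and Gata6 58.6 and 60.3. The naive markers there ran from 14.7 (Esrrb) to 583 and from 6.67 (Dppa3) to 446. Dcn, of the fibroblast list, and Elf5, of the trophectoderm list, had a tested start peak in these lines only, at 18.3 to 37.7 per kb. The part of other cell types in the results was not tested. Normalised counts are counts divided by the effective library size and scaled to the mean library of the fit.

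Members were wider, richer in CpG and poorer in SOX motifs than the average peak. A promoter peak had its summit within 500 bp of any annotated transcript start. The median width of members was 861 bp against 636 bp over all peaks, and the median GC content was 60.4% in member promoter peaks and 57.1% in the other members, against 55.7% and 49.45% over all promoter and other peaks. The median ratio of observed to expected CpG was 0.586 against 0.246, and 48.6% of members exceeded a ratio of 0.6 against 7.25% of all peaks. Peaks near Hox genes and near 32 other developmental regulators were close to members in both traits. Their median widths were 934 and 903 bp and their median CpG ratios 0.548 and 0.572. Promoter peaks made up 29.2% of members (54 peaks) against 13.2% of all peaks. Of the SOX words CATTGTT and CTTTGTT, searched on both strands, at least 1 lay in 14.1% of members (26 peaks) against 25.0% of all peaks. Within the 200 bp around the summit the shares were 3.78% (7 members) and 8.62%, with 4.74% of all promoter peaks. Of the Hox peaks and the peaks near the other regulators, 25.4% and 22.0% held a SOX word, and 9.32% and 6.0% within these 200 bp. The octamer ATGCAAAT lay in 3.78% of members (7 peaks) against 4.94%. The composite core TTGTNATGC, which can overlap a SOX word by TTGTT and the octamer by ATGC, lay in 0 of 185 members against 2.41% of all peaks.

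The sequences below are the 200 bp around the summits of OCRs that lost accessibility after SOX2 or OCT4 depletion and whose windows hold no UTR, and the promoter of Nkx6-2, whose start gained accessibility. In Nkx6-2 -8741 (chr7:139591438-139591637, plus strand, mm10) capitals mark the only listed motif found, CTTTGTT on the minus strand. The windows of Pax6 +8877 (chr2:105677677-105677876), Nkx6-2 +5529 (chr7:139577168-139577367) and Nkx2-2 +4499 (chr2:147189644-147189843), all on the plus strand, held none of the 4 listed motifs and have no capitals. The Nkx6-2 promoter, from the RefSeq promoter table for mm10, spans the 250 bases before its start (chr7:139582798-139583047, minus strand), has a GC content of 65.2% and shows its 26 CpG in capitals.
Nkx6-2 -8741: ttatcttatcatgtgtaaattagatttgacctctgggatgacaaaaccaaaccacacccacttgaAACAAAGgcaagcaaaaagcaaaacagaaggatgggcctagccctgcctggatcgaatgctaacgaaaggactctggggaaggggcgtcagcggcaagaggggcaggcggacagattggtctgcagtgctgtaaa
Pax6 +8877: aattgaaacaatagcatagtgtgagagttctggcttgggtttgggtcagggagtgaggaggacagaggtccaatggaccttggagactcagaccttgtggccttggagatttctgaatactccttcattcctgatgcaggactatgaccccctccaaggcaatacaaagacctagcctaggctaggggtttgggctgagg
Nkx6-2 +5529: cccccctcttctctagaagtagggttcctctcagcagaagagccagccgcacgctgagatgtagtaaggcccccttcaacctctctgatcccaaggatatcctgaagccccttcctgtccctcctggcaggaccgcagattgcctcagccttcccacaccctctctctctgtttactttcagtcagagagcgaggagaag
Nkx2-2 +4499: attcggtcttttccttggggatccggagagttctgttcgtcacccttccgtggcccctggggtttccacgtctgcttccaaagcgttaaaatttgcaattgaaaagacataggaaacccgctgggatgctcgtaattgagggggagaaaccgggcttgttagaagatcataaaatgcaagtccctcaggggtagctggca
Nkx6-2 promoter: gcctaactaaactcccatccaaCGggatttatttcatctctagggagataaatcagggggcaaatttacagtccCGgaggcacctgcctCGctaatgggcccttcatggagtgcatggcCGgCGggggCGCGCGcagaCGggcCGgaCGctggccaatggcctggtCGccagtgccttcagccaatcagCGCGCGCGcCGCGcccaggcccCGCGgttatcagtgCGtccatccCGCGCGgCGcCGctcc
Over the 38 promoter sequences of the 30 member genes that this table holds, 17 CpG was the median, against 7 over its 32851 promoters.

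Loss of accessibility touched few members at first and more at 24 h, in the SOX2-FKBP and OCT4-FKBP lines. A differentially accessible region (DAR) was a peak with an adjusted p below 0.05 against NT in edgeR's quasi-likelihood test, adjusted over all peaks tested, and lost or gained gives its direction. In bulk chromatin, fewer cells with an open site and less opening in each cell cannot be told apart. In SOX2-FKBP cells the members lost were 2 after 0.5 h (3.14% of all tested peaks were lost), 2 after 1 h (5.46%), 4 after 2 h (7.28%), 5 after 6 h (9.28%) and 14 after 24 h (14.1%). The members gained were 1 after 0.5 h (0.158% of all tested peaks were gained), 1 after 1 h (0.889%), 3 after 2 h (1.46%), 3 after 6 h (2.66%) and 10 after 24 h (9.17%). At 24 h the lost members were 8.09% and the gained members 5.78% of those tested, and the median log2 fold change was -0.02 over members and 0.04 over all peaks. These comparisons share their NT libraries.

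In OCT4-FKBP cells 6 members were lost after 2 h (5.1% of all tested peaks were lost). The count was 6 after 6 h (7.97%) and 11 after 24 h (12.7%). Gained members numbered 1 after 2 h (1.92% of all tested peaks were gained), 4 after 6 h (4.12%) and 18 after 24 h (10.8%). The 24 h losses were 6.11% of members and the gains 10.0%. With GC offsets 29 members were lost and 4 gained, and the shares of all tested peaks under that setting are not given. These counts therefore do not show whether members changed apart from all peaks. The number gained also depended on which 24 h library was left out, as counted below. In NANOG-FKBP cells the members lost were 2 after 2 h (0.938%), 1 after 6 h (1.08%) and 2 after 24 h (2.25%). Without the 3 shallow replicate 2 libraries these counts were 2, 0 and 2. No member was gained in the NANOG-FKBP line at 2 h (0.0162%), 6 h (0.0367%) or 24 h (0.288%) by edgeR or by DESeq2. At an unadjusted p under 0.05 in edgeR, 1, 1 and 2 members were higher. The shares of all tested peaks at that unadjusted cut-off are not given. Across all comparisons, 44 members at 23 of the 39 genes were called at least once, and 136 members were called in none. The 44 are 24.4% of the 180 members tested, against 38.3% of all tested peaks called at least once.

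**Figure D1:**
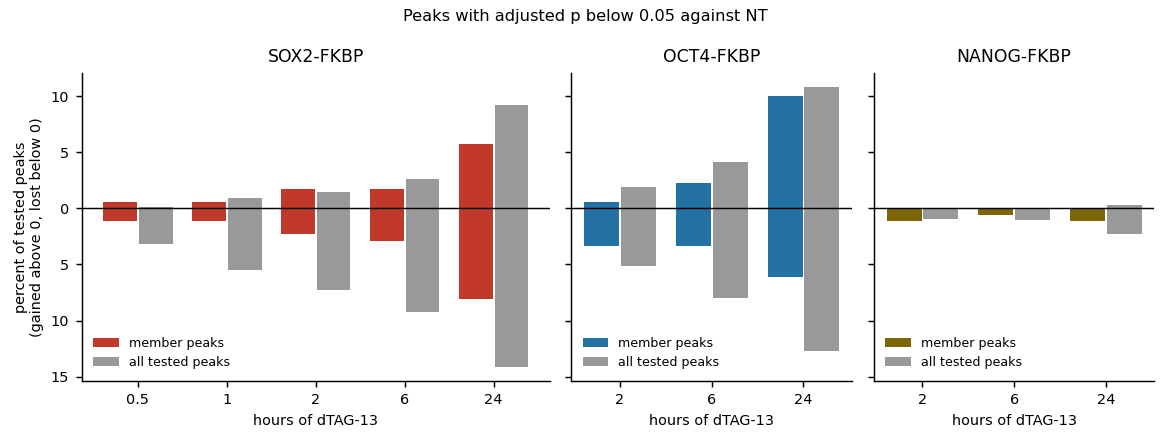
Percent of tested peaks with an adjusted p below 0.05 against NT, gained above and lost below the zero line, by hours of dTAG-13 in each line. Coloured bars are member peaks and grey bars are all tested peaks. In the edgeR fit drawn here, the lost share of members stays below that of all peaks at each time in the SOX2-FKBP and OCT4-FKBP lines. More members were lost at 24 h with GC offsets, a setting whose share over all peaks is not given.

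The only members called lost at 0.5 h and 1 h, in SOX2-FKBP cells, were 2 peaks around Nkx6-2, a homeodomain repressor of the ventral neural tube and of oligodendrocytes. Nkx6-2 -8741 (chr7:139591340-139591976), outside protein-coding genes and the peak with the SOX word shown above, read 59.0 and 62.3 normalised counts in the SOX2-FKBP NT libraries. It read 17.8 and 32.8 at 0.5 h, 17.04 and 15.0 at 1 h, 11.3 and 14.9 at 2 h, 9.19 and 9.46 at 6 h and 10.7 and 3.78 at 24 h. Every treated library lay below both NT libraries. The log2 fold change was -1.35 ± 0.30 (approximate SE, n = 2 against 2, adjusted p = 0.00444, edgeR) at 0.5 h and -2.18 ± 0.31 at 2 h (adjusted p = 2.46e-06). At 24 h it was -3.05 ± 0.36 (adjusted p = 2.18e-08), which left 11.9% of the NT mean. In OCT4-FKBP cells the same peak read 60.8 and 90.9 in NT, 27.6 and 45.4 at 2 h, 21.4 and 25.2 at 6 h and 14.5 and 16.99 at 24 h, again without overlap (log2 fold change -1.04 ± 0.31 at 2 h, adjusted p = 0.0318, and -2.28 ± 0.40 at 24 h, adjusted p = 3.87e-05, edgeR). NANOG-FKBP libraries ranged from 36.9 to 97.6 and overlapped NT (53.7 and 97.6) at every time.

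Nkx6-2 +3171 (chr7:139579328-139579856), over a UTR of the neighbouring gene Inpp5a and an annotated intron of Nkx6-2, had 66.0 and 86.4 normalised counts in SOX2-FKBP NT cells. It had 44.6 and 29.7 at 0.5 h, 42.4 and 29.8 at 2 h and 15.5 and 12.3 at 24 h. In OCT4-FKBP cells it had 92.8 and 124 in NT, 25.7 and 35.5 at 2 h, 9.80 and 21.1 at 6 h and 5.80 and 23.2 at 24 h. No treated library of these groups reached its NT libraries. The log2 fold change at 2 h was -1.06 ± 0.24 after SOX2 depletion (adjusted p = 0.00244, edgeR, n = 2 against 2) and -1.81 ± 0.30 after OCT4 depletion (adjusted p = 4.39e-05), and at 24 h it was -2.42 ± 0.29 and -2.93 ± 0.38. NANOG-FKBP cells kept 55.9 to 99.7 counts, overlapping NT at 62.8 and 98.0. The SOX2 call at 2 h was lost with DESeq2 (adjusted p = 0.0556), without NT replicate 2 (0.0683) or without 2 h replicate 2 (0.103).

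Nkx6-2 +5529 (chr7:139576505-139577377, in an intron of Inpp5a) was called lost from 2 h after OCT4 depletion and at 24 h after SOX2 depletion. Its OCT4-FKBP libraries read 83.4 and 89.9 in NT, 29.4 and 52.9 at 2 h, 32.5 and 37.5 at 6 h and 21.8 and 30.9 at 24 h. Its SOX2-FKBP libraries read 56.4 and 38.2 in NT, 42.4 and 41.4 at 2 h, 28.5 and 33.1 at 6 h and 17.5 and 25.5 at 24 h. The SOX2 libraries thus overlapped NT at 2 h, and the log2 fold change there was -0.22 ± 0.24 (adjusted p = 0.732, edgeR) against -1.04 ± 0.28 after OCT4 depletion (adjusted p = 0.014). The test of that difference did not pass (0.90 ± 0.42, adjusted p = 0.476), and the OCT4 call was lost with DESeq2 (adjusted p = 0.0516), without NT replicate 2 (0.101) or without 2 h replicate 1 (0.323). At 24 h the peak was lost in both lines, at -1.18 ± 0.28 and -1.72 ± 0.34. Nkx6-2 +4346 (chr7:139578046-139578603), between that pair in a UTR of Inpp5a, was lost at 24 h only, at -1.08 ± 0.31 after SOX2 and -0.94 ± 0.28 after OCT4 depletion.

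While these 4 peaks closed, the peak over the start of Nkx6-2 opened. Nkx6-2 +347 (chr7:139581715-139583145, over a coding exon and the promoter printed above) read 89.4 and 68.0 in SOX2-FKBP NT cells, 90.5 and 104 at 2 h, 111 and 121 at 6 h and 123 and 153 at 24 h. OCT4-FKBP cells read 124 and 90.4 in NT, 172 and 108 at 2 h, 191 and 130.2 at 6 h and 235 and 179 at 24 h. The 24 h libraries lay above NT in both lines, and the log2 fold changes were 0.79 ± 0.19 (adjusted p = 0.00241, edgeR) and 0.96 ± 0.25 (adjusted p = 0.00418). NANOG-FKBP libraries ran from 94.9 to 159 and overlapped NT. With offsets that remove the trend of counts with GC content, the gains were 0.44 (adjusted p = 0.0978) and 0.31 (adjusted p = 0.311), and they were also not called without NT replicate 2 in either line (0.064 and 0.122). They were lost as well without 24 h replicate 2 of SOX2-FKBP (0.0612) and without 24 h replicate 1 of OCT4-FKBP (0.098). The other members around Nkx6-2, at +1690, -1805, -3511 and -7706, were called in no comparison.

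**Figure D2:**
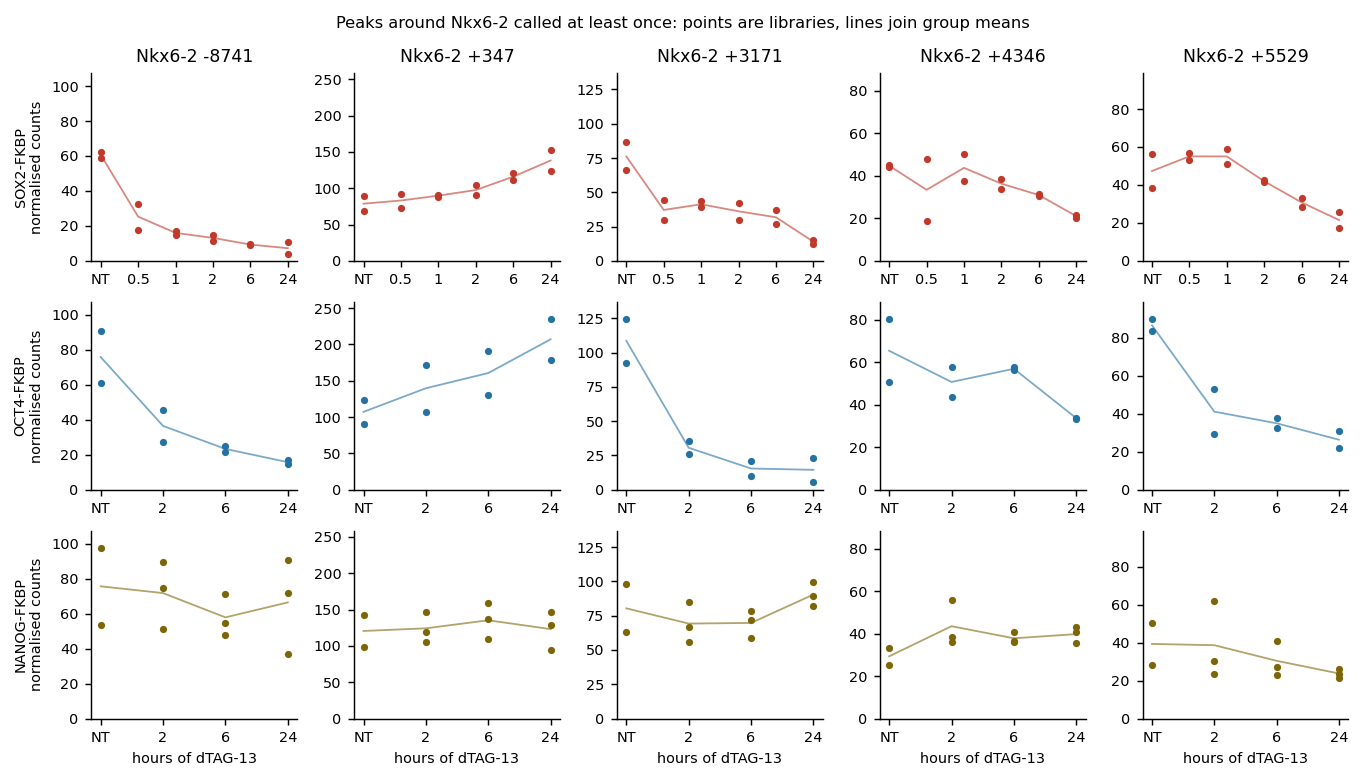
Normalised counts of 5 peaks around Nkx6-2 (columns, each with its own y axis) by hours of dTAG-13 in SOX2-FKBP (top), OCT4-FKBP (middle) and NANOG-FKBP cells (bottom). Times are evenly spaced, points are single libraries and lines join group means. Nkx6-2 -8741 falls from 59.0 and 62.3 to 10.7 and 3.78 in SOX2-FKBP cells while Nkx6-2 +347 rises to 123 and 153.

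Pax6 +8877 was the only member called lost in all 3 lines. Pax6 is the paired-box regulator of eye and forebrain, and this peak (chr2:105677480-105678042) lies in one of its introns. OCT4-FKBP libraries read 166 and 142 in NT, 39.5 and 59.7 at 2 h, 30.0 and 39.3 at 6 h and 10.2 and 15.4 at 24 h. SOX2-FKBP libraries read 157 and 167 in NT, 119 and 141 at 0.5 h, 131 and 119.8 at 1 h, 113 and 117 at 2 h, 105 and 85.9 at 6 h and 58.2 and 31.2 at 24 h. NANOG-FKBP libraries read 126 and 172 in NT, 56.7, 62.1 and 69.9 at 2 h, 54.8, 64.8 and 97.7 at 6 h and 61.1, 56.1 and 47.9 at 24 h. Treated and NT libraries did not overlap at any time in any line, and without the shallow NANOG-FKBP libraries the NANOG responses at 2 h and 24 h were -1.24 (adjusted p = 0.0219, edgeR) and -1.42 (0.00208).

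After OCT4 depletion the log2 fold change was -1.61 ± 0.26 at 2 h (adjusted p = 3.23e-05, edgeR, n = 2 against 2) and -3.58 ± 0.36 at 24 h (adjusted p = 8.31e-10), leaving 8.32% of NT. After SOX2 depletion it was -0.49 ± 0.19 at 2 h (adjusted p = 0.117), -0.77 ± 0.19 at 6 h (adjusted p = 0.00472) and -1.86 ± 0.22 at 24 h (adjusted p = 1.87e-08), leaving 27.6%. After NANOG depletion it was -1.26 ± 0.27 at 2 h (adjusted p = 0.0073, n = 3 against 2), -1.09 ± 0.26 at 6 h (adjusted p = 0.0186) and -1.42 ± 0.26 at 24 h (adjusted p = 0.000516), leaving 36.9%. The SOX2 and OCT4 responses differed by 1.18 ± 0.36 at 2 h, which did not pass (adjusted p = 0.0987), and NANOG was not tested against either. The NANOG call at 2 h was lost without NT replicate 2 (adjusted p = 0.146) or 2 h replicate 1 (0.116).

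Nkx2-2 +4499, in an intron of the ventral neural tube and pancreatic islet regulator Nkx2-2 (chr2:147189204-147191017), closed after SOX2 and OCT4 depletion and was not called after NANOG depletion. SOX2-FKBP libraries read 150.2 and 152 normalised counts in NT, 67.9 and 101 at 2 h, 77.2 and 72.5 at 6 h and 35.9 and 44.4 at 24 h. OCT4-FKBP libraries read 346 and 246 in NT, 139.6 and 188 at 2 h, 145 and 132 at 6 h and 123 and 111 at 24 h. In neither line did treated libraries overlap NT at these times. The log2 fold changes were -0.83 ± 0.20 (adjusted p = 0.00402, edgeR) and -0.84 ± 0.21 (adjusted p = 0.00804) at 2 h, and -1.90 ± 0.22 (adjusted p = 2.1e-08) and -1.33 ± 0.23 (adjusted p = 2.49e-05) at 24 h. NANOG-FKBP libraries ran from 154 to 217, with NT at 217 and 204. The SOX2 call at 2 h was lost without NT replicate 1 (adjusted p = 0.0513) or 2 h replicate 1 (0.161). A smaller neighbour in the same intron, Nkx2-2 +6812, was lost at 24 h after SOX2 depletion (-1.27 ± 0.34, adjusted p = 0.00489).

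Dlx6 -3504, upstream of the forebrain and limb gene Dlx6, was called lost at 2 h and 6 h after OCT4 depletion and at 24 h after SOX2 depletion. It read 199.5 and 213 in OCT4-FKBP NT cells, 107 and 136 at 2 h, 120.0 and 101 at 6 h and 169.6 and 114 at 24 h. The log2 fold change was -0.76 ± 0.23 at 2 h (adjusted p = 0.0298, edgeR), -0.90 ± 0.23 at 6 h (adjusted p = 0.00418) and -0.54 ± 0.23 at 24 h, when it was not called (adjusted p = 0.0959). In SOX2-FKBP cells it read 91.2 and 87.8 in NT, 67.7 and 98.4 at 0.5 h, 41.1 and 76.4 at 1 h, 48.1 and 70.5 at 2 h, 66.1 and 83.5 at 6 h and 38.8 and 55.7 at 24 h (-0.92 ± 0.25, adjusted p = 0.00635). From 1 h on these libraries lay below both NT libraries, without a call before 24 h, and the difference from the OCT4 response did not pass at 2, 6 or 24 h (adjusted p = 0.953, 0.415 and 0.725).

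The remaining losses were of low peaks or came at 24 h in one line. Lhx2 +1552, in an intron of the forebrain and eye gene Lhx2, was called after SOX2 depletion at 6 h (-3.15 ± 0.68, adjusted p = 0.000882, edgeR) and 24 h and after NANOG depletion at 2 h (-2.13 ± 0.48, adjusted p = 0.0134) and 24 h. Its NT libraries were 12.2 and 31.1 normalised counts in SOX2-FKBP and 76.2 and 22.1 in NANOG-FKBP cells, so that the NT libraries of each line differed by more than 2-fold. Nkx2-5 +8973, downstream of the cardiac gene Nkx2-5, read 48.6 and 43.9 in SOX2-FKBP NT cells, 16.98 and 22.4 at 2 h (-1.23 ± 0.30, adjusted p = 0.00386) and 22.3 and 27.4 at 24 h. After SOX2 depletion the peaks Pax3 -3265, Lhx9 +4940, Lhx4 -9642 and Irx2 +7790, with 13.6 to 23.6 normalised counts on average in NT, were lost at 24 h. After OCT4 depletion Six2 -2757 (118 to 46.7 counts on average, -1.32 ± 0.28, adjusted p = 0.000471), Dlx1 +7155, Dlx2 +7324, Dlx3 -4526 and Irx1 -3957 were lost at 24 h.

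**Figure D3:**
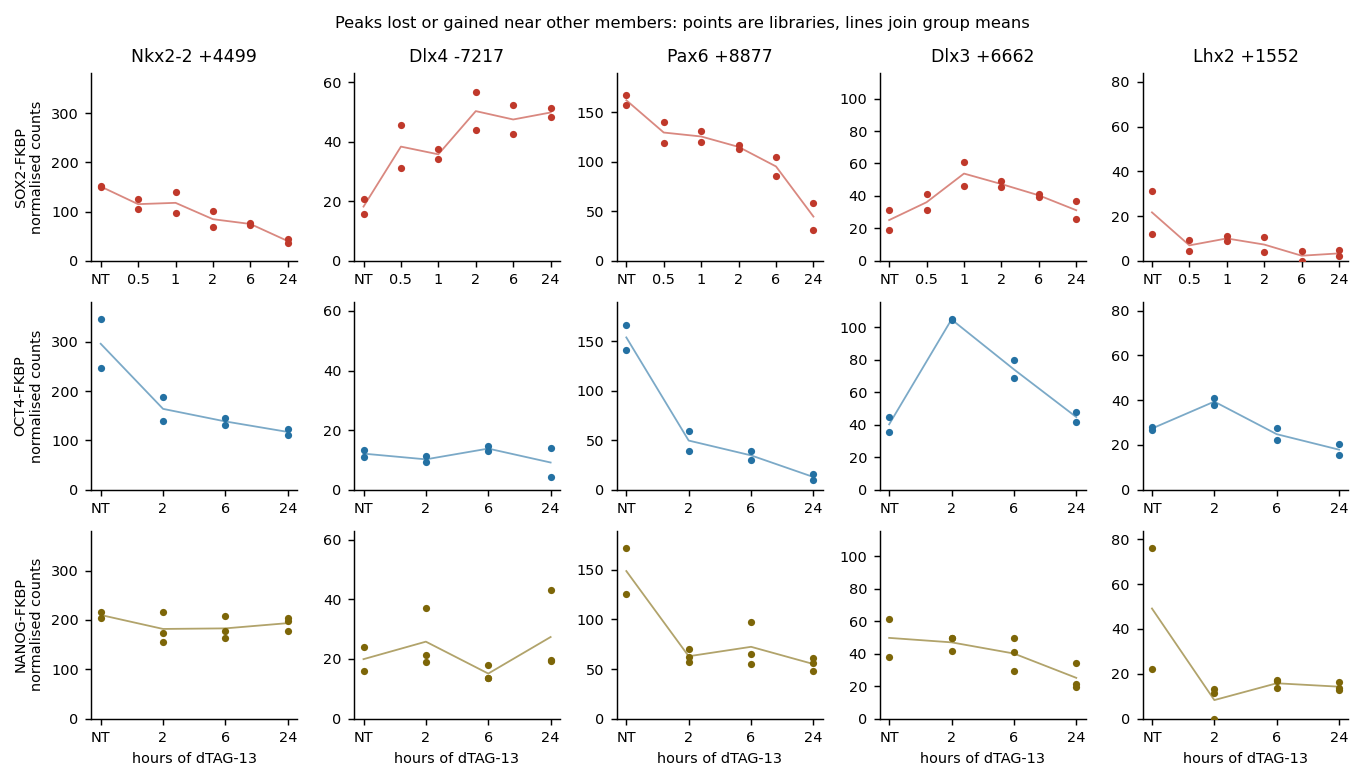
Normalised counts of 5 peaks near other member genes (columns, each with its own y axis) by hours of dTAG-13 in SOX2-FKBP (top), OCT4-FKBP (middle) and NANOG-FKBP cells (bottom). Times are evenly spaced, points are single libraries and lines join group means. Pax6 +8877 falls in all 3 lines, Dlx3 +6662 peaks at 105 in both OCT4-FKBP libraries at 2 h, and Dlx4 -7217 was called gained in SOX2-FKBP cells, with a difference from OCT4-FKBP cells that did not pass its own test.

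Gains before 24 h lay near Dlx3, Dlx4, Lhx3 and Lhx1, away from the gene starts with the exception of Lhx3 +33. Dlx3, a regulator of epidermis and placenta, and Dlx4 neighbour each other on chromosome 11. Dlx3 +6662 (chr11:95126387-95127111) read 35.9 and 44.7 in OCT4-FKBP NT cells, 105 and 105 at 2 h, 68.6 and 79.7 at 6 h and 47.8 and 41.7 at 24 h. It was gained at 2 h (1.37 ± 0.26, adjusted p = 0.000253, edgeR) and 6 h (0.87 ± 0.26, adjusted p = 0.0177), and at 24 h its libraries overlapped NT (0.14 ± 0.30, adjusted p = 0.788). In SOX2-FKBP cells it read 19.1 and 31.2 in NT, 41.0 and 31.2 at 0.5 h, 61.2 and 46.4 at 1 h, 49.0 and 45.6 at 2 h, 41.3 and 39.4 at 6 h and 36.9 and 25.5 at 24 h. The calls there were at 1 h (1.19 ± 0.29, adjusted p = 0.00555) and 2 h (0.98 ± 0.28, adjusted p = 0.0195).

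Dlx4 -7217 (chr11:95153030-95153637) read 20.8 and 15.6 in SOX2-FKBP NT cells, 45.5 and 31.2 at 0.5 h, 34.1 and 37.4 at 1 h, 56.6 and 43.9 at 2 h, 52.4 and 42.6 at 6 h and 51.4 and 48.2 at 24 h. All 10 treated libraries lay above NT. It was called at 0.5 h (1.08 ± 0.31, adjusted p = 0.0395), 2 h (1.41 ± 0.28, adjusted p = 0.000509), 6 h and 24 h (1.40 ± 0.29, adjusted p = 0.000288) but not at 1 h (0.92 ± 0.32, adjusted p = 0.0839). OCT4-FKBP libraries ran from 4.35 to 14.7, with NT at 10.9 and 13.3. The difference between the 2 responses was 1.73 ± 0.53 at 2 h (adjusted p = 0.0997) and 1.89 ± 0.59 at 24 h (adjusted p = 0.0767) and did not pass. Dlx4 +2974, in an intron of Dlx4, read 49.5 and 45.3 in SOX2-FKBP NT cells and 90.3 and 79.3 at 24 h (0.83 ± 0.21, adjusted p = 0.00367), a call lost without 24 h replicate 1 (adjusted p = 0.0509). Near Lhx3, a gene of pituitary and motor neurons, Lhx3 +8479 was gained after SOX2 depletion at 2 h (1.00 ± 0.28, adjusted p = 0.0142), 6 h and 24 h.

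**Figure D4:**
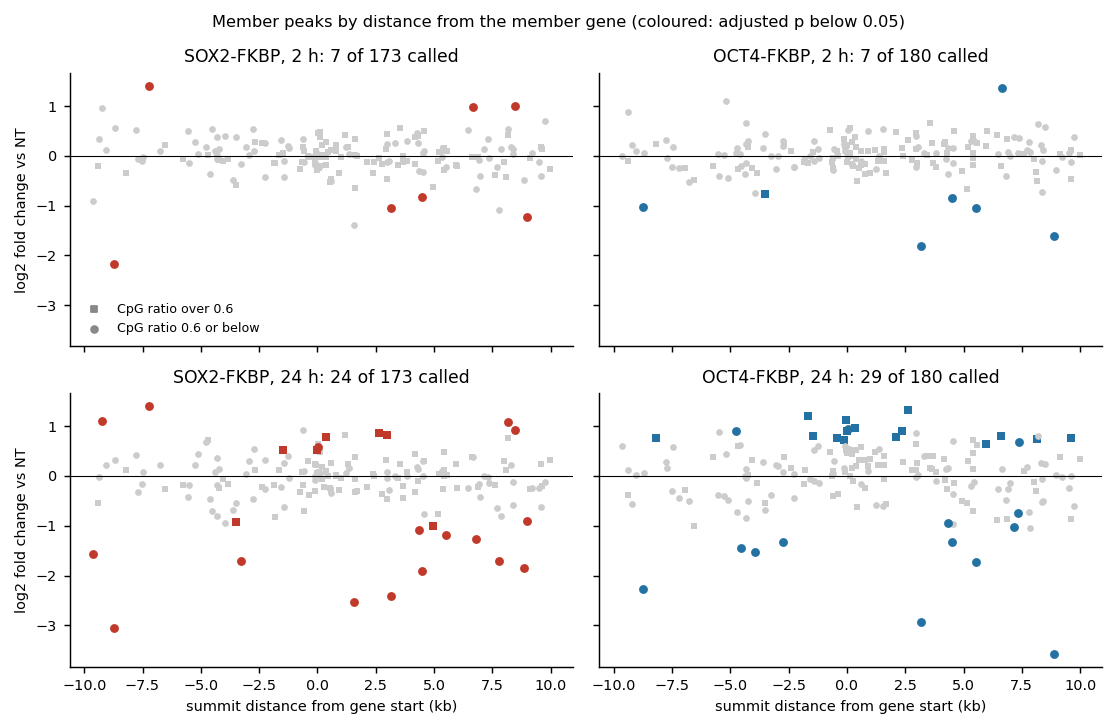
The log2 fold change against NT of each tested member peak, plotted by the distance in kb of its summit from the start of its member gene, for SOX2-FKBP (left) and OCT4-FKBP cells (right) at 2 h (top) and 24 h (bottom). Coloured points have an adjusted p below 0.05, squares have an observed to expected CpG ratio over 0.6 and circles 0.6 or below. At 2 h the coloured points lie more than 2 kb from a start, and at 24 h in OCT4-FKBP cells gains gather at CpG-rich peaks.

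The starts themselves were mostly CpG-rich, a class with few losses among all peaks. A start peak, the member peak nearest to the 5′ end with its summit within 1 kb, was present for 35 genes, and 29 of these peaks had a CpG ratio over 0.6. Pax5, Pax8, Nkx2-9 and Dlx1 had none, and that of Lhx4 was tested in the combined data of the 3 lines only. In SOX2-FKBP NT cells the median level was 50.4 normalised counts per kb over 34 start peaks, against 74.4 over all tested promoter peaks and 42.2 over the other tested members. The highest was Six4 -46, with 145 per kb, followed by Irx2 -17 with 124 and Pax1 +583 with 104, and the lowest were Pax6 +787, Lhx2 +202 and Pax9 +18, with 26.4, 26.4 and 26.5. At 2 h after SOX2 depletion 32 of 34 start peaks lay within 0.5 of zero on the log2 scale, from -0.53 (Lhx6) to 0.49 (Dlx4), with a median of -0.02. After OCT4 depletion 30 of 35 did at 2 h, and after NANOG depletion 32 of 35. No start peak was lost in any of the 11 comparisons by edgeR or by DESeq2. At an unadjusted p under 0.05 in edgeR, 5 of 380 tests, at 4 start peaks, were lower. The share of all peaks at that unadjusted cut-off is not given. Among all peaks with a CpG ratio over 0.6, the lost shares were 0.561% at 2 h and 1.25% at 24 h after SOX2 depletion and 0.189% and 0.623% after OCT4 depletion, so that none among 35 is near the background.

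At 24 h some starts had gained accessibility. After SOX2 depletion these were Nkx6-2 +347, Irx2 -17 and Lhx3 +33, or 8.82% of 34, against 9.17% of all peaks and 19.2% of all promoter peaks. The 27-library fit did not call Irx2 -17 (adjusted p = 0.0826) or Lhx3 +33 (0.119). After OCT4 depletion they were the starts of Irx1, Irx2, Lhx3, Nkx6-1, Nkx6-2 and Six2, or 17.1% of 35, against 10.8% of all peaks and 34.5% of all promoter peaks, and the median over 35 start peaks was 0.33. The OCT4-FKBP libraries of Six2 -124 overlapped, at 229 and 172 in NT and 431 and 229 at 24 h. Irx1 -36, at the start of the Iroquois gene Irx1 (chr13:71962608-71964647), read 111 and 122 in OCT4-FKBP NT cells, 139 and 111 at 2 h, 157 and 119 at 6 h and 310.2 and 195 at 24 h (1.12 ± 0.26, adjusted p = 0.00105, edgeR). In SOX2-FKBP cells its 24 h libraries, 88.3 and 114, overlapped NT at 103 and 92.0 (0.05 ± 0.20, adjusted p = 0.892). The difference between the responses was -1.03 ± 0.37 and did not pass (adjusted p = 0.149). The gain of Irx1 -36 was not called with GC offsets (adjusted p = 0.13) or without 24 h replicate 1 (0.0958).

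Lhx3 +33, over the UTR at the start of Lhx3 (chr2:26207889-26208770), read 58.5 and 47.3 in OCT4-FKBP NT cells, 113 and 66.3 at 6 h (0.77 ± 0.25, adjusted p = 0.0376) and 125 and 77.2 at 24 h (0.94 ± 0.27, adjusted p = 0.00795). In SOX2-FKBP cells it read 59.0 and 60.9 in NT and 84.4 and 95.4 at 24 h (0.59 ± 0.22, adjusted p = 0.0455), a call that 15 of 21 alternative settings did not give (adjusted p up to 0.226). Irx5 +2634, in a coding exon of Irx5, a gene of retina and heart, read 46.0 and 60.6 in OCT4-FKBP NT cells and 187 and 81.9 at 24 h (1.33 ± 0.32, adjusted p = 0.00204), a call lost with GC offsets (adjusted p = 0.109) or without 24 h replicate 1 (0.341). In SOX2-FKBP cells it read 17.4 and 22.7 in NT and 27.2 and 43.4 at 24 h (0.86 ± 0.31, adjusted p = 0.0413).

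Most members gained after OCT4 depletion were CpG-rich, yet the share gained was lower than among all CpG-rich peaks. At 24 h, 15 of the 18 gained members had a CpG ratio over 0.6 and 12 were promoter peaks, whereas 0 of the 11 lost members were either. Of the members with a ratio over 0.6, 15 of 90 (16.7%) were gained, with a median log2 fold change of 0.30, against 51.5% of all such peaks, with a median of 0.64. After SOX2 depletion 5 of 88 (5.68%) were gained at 24 h, with a median of 0.01, against 23.3% of all such peaks and a median of 0.32. Promoter peaks showed the same order, with 22.2% of members and 34.5% of all promoter peaks gained 24 h after OCT4 depletion. In the CpG-poorer class, 12.2% of members and 13.7% of all peaks were lost after OCT4 depletion and 14.1% and 15.2% after SOX2 depletion at 24 h. These shares were not tested against each other.

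Library composition moved with these gains. The count-weighted GC content of peaks was 53.4 and 53.0% in the OCT4-FKBP NT libraries and 55.1 and 54.3% in those at 24 h, and replicate 1 at 24 h, the one with 55.1%, had the larger value of the pair at all 6 gained starts. The number of members gained at 24 h after OCT4 depletion was 4 with GC offsets, 7 when only the groups compared were fitted, 0 without 24 h replicate 1, 3 without NT replicate 2 and 28 without 24 h replicate 2. The shares of all tested peaks gained under these settings are not given, so these counts do not show whether members changed apart from all peaks. The part of library composition in these gains was not tested. With scaling to total counts in place of TMM the median of all peaks at this time moved from -0.01 to -0.14 on the log2 scale, and 10 members were gained.

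**Figure D5:**
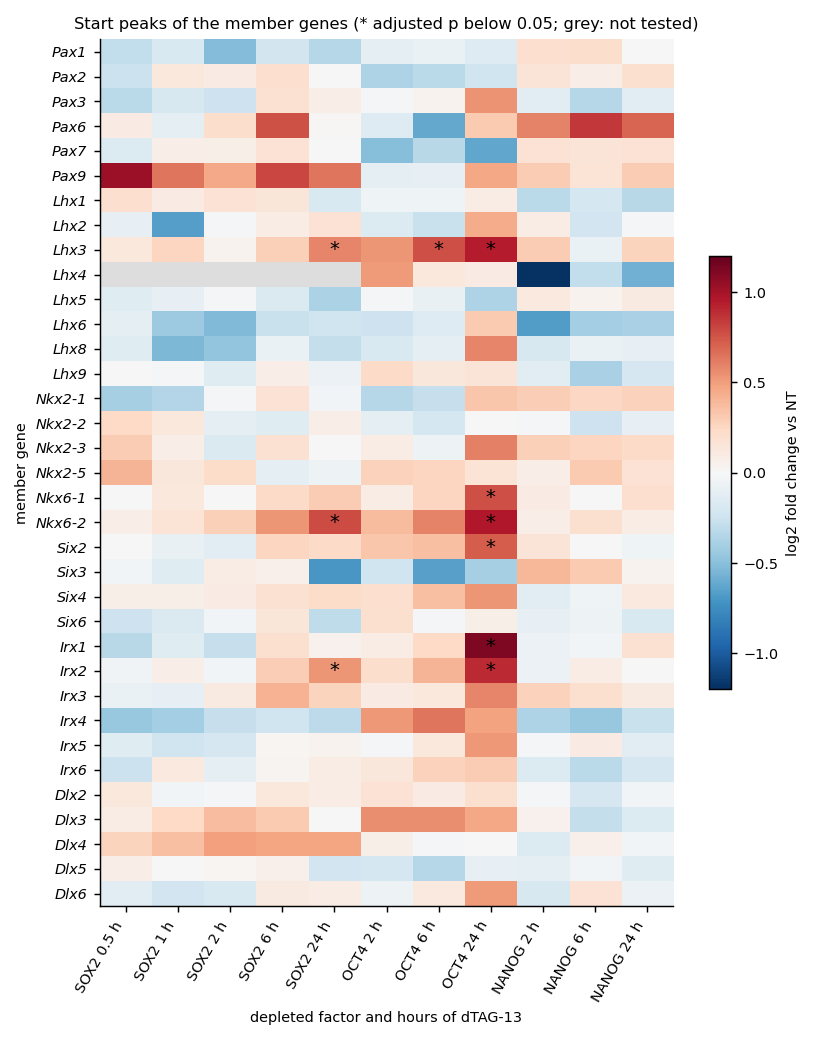
Log2 fold change against NT of the start peaks of 35 member genes (rows) in each comparison (columns, depleted factor and hours of dTAG-13), from blue for lower to red for higher than NT. Stars mark an adjusted p below 0.05 and grey cells were not tested. Stars stand on red cells only, 3 at SOX2 24 h, 1 at OCT4 6 h and 6 at OCT4 24 h.

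The responses to SOX2 and OCT4 depletion were set against each other in 1 model, since calls in separate lines were not compared by their own tests. At 2 h, 0 members differed, either more negative (1.2% of all tested peaks) or more positive (0.374%) after SOX2 depletion, by edgeR or by DESeq2, and 3 and 5 had an unadjusted p under 0.05. With a replicate block, for which the labels give no basis, members were called in both directions at 2 h and at 24 h, as counted below. At 6 h, without the block, 1 member was more negative (1.88%) and 2 were more positive (0.847%) after SOX2 depletion. At 24 h, 0 were more negative (1.67%), also 0 by DESeq2, and 1 was more positive (1.1%). At an unadjusted p under 0.05 in edgeR, 11 were more negative at 24 h. The shares of all tested peaks at that unadjusted cut-off are not given for 2 h or 24 h. The unadjusted counts therefore have no background beside them. Pax6 +8877 lost less after SOX2 than after OCT4 depletion, with a difference of 1.43 ± 0.37 at 6 h (adjusted p = 0.0195) and 1.76 ± 0.48 at 24 h (adjusted p = 0.0303), the latter lost in 7 of 23 alternative settings (adjusted p up to 0.326). Nkx6-2 +3171 did so at 6 h (1.61 ± 0.46, adjusted p = 0.044). Lhx2 +1552 was lower after SOX2 depletion at 6 h (-2.98 ± 0.84, adjusted p = 0.0393). Its SOX2-FKBP libraries read 12.2 and 31.1 normalised counts in NT and 4.59 and 0 at 6 h. How the 6 h differences hold under the alternative settings is not given here.

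Over all times, 14 members (8.09%) were lost in SOX2-FKBP cells, against 15.2% of all tested peaks, and 11 (6.36%) were gained, against 10.8%. In OCT4-FKBP cells 12 members (6.67%) were lost, against 14.2% of all tested peaks, and 21 (11.7%) were gained, against 13.3%. The 7 lost in both lines were 4 peaks around Nkx6-2 and 1 each near Pax6, Nkx2-2 and Dlx6. The lines share no libraries, but the fit behind the OCT4-FKBP calls also drew its scaling and spread from SOX2-FKBP libraries. These peaks are 7 of 14 SOX2 losses and 58.3% of the OCT4 losses. Over all peaks these shares were 56.3% and 58.1%. The 7 gained in both were at Nkx6-2, Lhx3, Irx2, Irx5 (2 peaks) and Dlx3 (2 peaks), or 63.6% and 33.3% of the gains, against 39.8% and 31.3% over all peaks. Members and all peaks were not tested against each other in these shares.

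Of the members with a SOX word within 200 bp around the summit, 2 of 7 were lost 2 h after SOX2 depletion and 3 of 7 at 24 h. The shares of all peaks with the word were 20.5% and 31.4%. Of members without the word 1.2% were lost at 2 h and 6.63% at 24 h, against 6.09% and 12.6% of all peaks without it.

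The same counts were taken at other gene lists. At 24 h after SOX2 depletion 2 of 110 Hox peaks (1.82%) and 12 of 140 peaks near 32 other developmental regulators (8.57%) were lost. Of members 8.09% were lost, and of all tested peaks 14.1%. The gained shares of these lists after SOX2 depletion are not given here. At 24 h after OCT4 depletion the lost shares were 11.1% and 4.83%, beside 6.11% of members and 12.7% of all tested peaks. The gained shares were 9.4% and 8.97%, beside 10.0% of members and 10.8% of all tested peaks. Peaks near 12 naive pluripotency genes were lost in 30.8% of cases after SOX2 and in 39.6% after OCT4 depletion at 24 h. None of these lists was tested against another.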

How the data were processed

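Per the deposited peak list and the study's methods, the authors aligned ATACseq reads to mm10 with BWA 0.7.17-r1188, filtered them with SAMtools 1.10, removed duplicates with Picard 2.12.0, called peaks on merged time course libraries with MACS2 and counted fragments per peak. Whether cut positions were shifted for Tn5 is not given in the sources used here. The authors deposited raw fragment counts per peak, which were used unscaled. From the deposited peak list, the coordinates and the other value it gives, the summit offset in bp, were used and the enrichment and p columns were not. 

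A peak was tested when its count exceeded 10 in over 2 of the 12 SOX2-FKBP libraries, or in over 6 of the 27 libraries of the 3 lines. Tests used TMM and quasi-likelihood in edgeR 4.0.16 (R 4.3.3, limma 3.58.1). Values after ± are approximate standard errors, the size of the log2 fold change divided by the square root of the test's F value. The spread behind them was estimated over all libraries of a fit, not only the groups compared. The models followed the study's, which used DESeq2, with time alone for SOX2-FKBP and 1 group per line and time for the 3 lines, and p-values were adjusted by Benjamini-Hochberg over all peaks tested. DESeq2 1.42.0, other scalings and filters, GC offsets in 50 bins, a replicate block and leaving out libraries were alternatives. SOX2-FKBP values come from the 12-library fit except in the test of SOX2 against OCT4. Fits were tested on simulated data. Total counts in peaks per library, 1817191 to 17575631, set the precision. In 20 replicate pairs the chi-square per degree of freedom between libraries was at least 1.24, so none was counted as a duplicate.

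Members, comparison lists and named peaks were chosen with earlier results of these data known. Named were each start peak, the 3 largest losses and gains per line at 2 h and 24 h among called peaks with at least 50 normalised counts and no overlap with NT, and the 2 largest differences between the SOX2 and OCT4 responses in each direction at 2 h and 24 h. Other peaks (such as Lhx2 +1552, Dlx6 -3504, Nkx6-2 +4346 and Nkx2-5 +8973) were named after their values were seen. Sequences are from the mm10 genome and the RefSeq promoter table. Python 3.11.15 was used for tables.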

Additional observations from a re-analysis of the deposited data

Results flagged for a closer look

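The following 4 responses differed between the SOX2-FKBP and OCT4-FKBP lines in the test of the difference itself, the interaction in edgeR's quasi-likelihood model, adjusted over all peaks tested. Values are the log2 response to SOX2 depletion minus that to OCT4 depletion. Pax6 +8877 differed by 1.43 ± 0.37 at 6 h (adjusted p = 0.0195) and by 1.76 ± 0.48 at 24 h (adjusted p = 0.0303), having lost more accessibility after OCT4 depletion, with no overlap of treated and NT libraries in either line. Nkx6-2 +3171 differed by 1.61 ± 0.46 at 6 h (adjusted p = 0.044), in the same direction. Lhx2 +1552 differed by -2.98 ± 0.84 at 6 h (adjusted p = 0.0393), having fallen further after SOX2 depletion. The SOX2-FKBP NT libraries of this peak read 12.2 and 31.1 normalised counts. How the 6 h differences hold under the alternative settings is not given here. The 24 h difference of Pax6 +8877 was not called in 7 of 23 alternative settings, and its adjusted p ran from 0.00424 to 0.326 over them.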

How the results depend on the processing

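Precision was limited by 2 libraries in most groups and by the depth of the shallowest libraries. Of 433 alternative values of the 23 named log2 fold changes, 389 kept their direction and side of the threshold, 44 kept the direction but were not called, and 0 reversed. The causes of these changes were not tested. Some alternatives left out a library of neither compared group, which could alter only the shared scaling and spread. The named values had been picked among called changes. The 389 of 433 therefore do not measure how stable the changes of members are in general. A stricter filter leaves fewer peaks to test, whereas leaving out a library kept the peaks tested the same. The counts below are of members alone, without the share of all tested peaks called under the same setting.

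With DESeq2, members lost after SOX2 depletion numbered 2 at 2 h and 8 at 24 h (4 and 14 by edgeR) and those gained 1 and 5 (3 and 10), while after OCT4 depletion 3 and 7 were lost (6 and 11) and the 24 h difference between SOX2 and OCT4 was called in 0 (1). Total counts gave 5 gained at 2 h after SOX2 and 10 gained at 24 h after OCT4 depletion (18 with TMM). When each library had to hold at least 10 counts, 9 were lost at 24 h after SOX2 depletion, 2 lost and 0 gained at 2 h, and then 10 gained at 24 h, after OCT4 depletion, 0 lost at 2 h and 24 h after NANOG depletion, and 0 more positive at 24 h. GC offsets gave 22 lost and 4 gained at 24 h after SOX2, and 29 lost and 4 gained at 24 h after OCT4 depletion. Fitting the compared groups alone gave 8 lost and 5 gained at 2 h after SOX2 depletion and 7 gained at 24 h after OCT4 depletion. The 27-library fit gave 2 lost at 2 h and 4 gained at 24 h after SOX2 depletion. Leaving out the shallow NANOG-FKBP libraries, an alternative chosen after seeing the data, left 2 lost at 2 h and 2 at 24 h.

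Replicate numbers are shared between groups, but nothing in the labels makes them pairs. Deviations of same-numbered libraries from their group means correlated at 0.0787 to 0.224 in SOX2-FKBP, 0.13 to 0.334 in OCT4-FKBP and -0.02 to 0.294 in NANOG-FKBP over all tested peaks. With the replicate block, 9 were lost and 5 gained at 2 h after SOX2 depletion, 5 gained at 2 h after OCT4 depletion, 18 lost and 33 gained at 24 h in that line, and 1 gained at 2 h after NANOG depletion. The difference between SOX2 and OCT4 was then called in 1 more negative and 2 more positive members at 2 h and in 1 and 3 at 24 h. With GC offsets and the replicate block together, 11 were lost at 2 h and 35 at 24 h after SOX2 depletion. After 2 h of OCT4 depletion 12 were lost and 2 were gained, while at 24 h 37 were lost and 8 gained. After NANOG depletion 1 was gained at 2 h, and for the difference 1 was more negative and 2 more positive at 2 h and 2 more positive at 24 h.

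Leaving out each library in turn gave 2 to 4 lost and 1 to 4 gained at 2 h after SOX2 depletion. The low of 2 came without 2 h replicate 1, and the low of 1 without NT replicate 1 or either 2 h replicate. At 24 h it gave 7 to 16 lost (7 without NT replicate 1, 8 without 24 h replicate 1) and 4 to 11 gained (4 without NT replicate 1 or 24 h replicate 2, 5 without NT replicate 2, 6 without 24 h replicate 1). After OCT4 depletion it gave 2 to 6 lost at 2 h (2 without 2 h replicate 1, 3 without NT replicate 2), 1 gained, and 8 to 13 lost and 0 to 28 gained at 24 h (0 without 24 h replicate 1, 3 without NT replicate 2, 28 without 24 h replicate 2). After NANOG depletion it gave 0 to 2 lost at 2 h (0 without 2 h replicate 1, 1 without either NT replicate or 2 h replicate 3), 1 to 2 at 24 h (1 without NT replicate 1, 24 h replicate 1 or 24 h replicate 3), and 0 gained. The 24 h difference of Pax6 +8877 ran from 1.21 (without SOX2-FKBP 24 h replicate 1) to 2.16 over all alternative settings. It was not called without either SOX2-FKBP NT replicate or SOX2-FKBP 24 h replicate 1. Nor was it called without OCT4-FKBP NT replicate 1 or either OCT4-FKBP 24 h replicate.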
